A study of Mus musculus with 12 samples.

Results

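The terms described here are the Gene Ontology (GO) terms on synapses and neurotransmitters that the authors listed for 8 lists of genes from the mouse hippocampus. A GO term is a named set of genes that share a process, a place in the cell or a molecular activity. Terms were taken when their name held 1 of 4 word stems, synap, neurotransmitter, glutamate or GABA, in any case. This gave 17 of the 490 distinct terms listed, in 33 of the 1076 entries over the 8 lists. The stem synap was in 15 terms, glutamate in 3 and neurotransmitter in 1, and GABA was in 0, so the set is almost wholly one of synapse terms.

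H3K4me3, a histone mark of active promoters, was profiled by ChIP-seq in the whole hippocampus of 12 C57BL/6N mice at postnatal day 30. There were 3 Del/+ mice, heterozygous for a deletion of the Arf2-Kansl1 interval, 3 Kansl1+/- mice, heterozygous for the Kansl1 tm1b allele that Cre recombinase made from tm1a in a line from a single ES cell clone, and 6 wt littermates, 3 for each line. Each mutant was compared by the authors with all 6 wt mice. Genes whose promoter mark differed at a DESeq2 p-value below 0.01, for which no correction was named, were called. The Del/+ up, Del/+ down, Kansl1+/- up and Kansl1+/- down lists come from these comparisons, so every list shares the same wt libraries. The up-regulated genes of both mutants were also divided by the authors into 4 clusters: cluster 1 holds genes up-regulated in Kansl1+/- and not in Del/+, cluster 2 in both, cluster 3 more strongly in Del/+, and cluster 4 in Del/+ specifically.

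A synapse is the contact at which a neuron passes a signal to its target cell. The presynaptic side releases a transmitter from vesicles, and the postsynaptic side holds the receptors, anchored in a protein-dense layer under the membrane. In the hippocampus most excitatory synapses use glutamate, most inhibitory ones use gamma-aminobutyric acid, and change in the strength of glutamate synapses is a well studied basis of learning and memory.

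For each term, the count is the number of list genes that carry it, the expected number is the list size times the term's share of the 23468 background genes, and the fold is the count over the expected number. The list sizes were 160, 214, 212 and 162 genes for clusters 1 to 4, 343 for Kansl1+/- up, 483 for Kansl1+/- down, 512 for Del/+ up and 343 for Del/+ down. These sizes were derived from the tables of GO terms, which do not say how the listed genes relate to the called promoters, so they need not equal the numbers of called promoters. Exact 95% Clopper-Pearson intervals are given for shares and, rescaled, for folds. They cover counting error only. The tables hold no value per mouse and no gene name, so the spread between mice, the depth of each library and the markers of cell types were not analysed here. In whole tissue, a different number of cells of a type and a different amount of the mark per cell cannot be told apart. "Up-regulated" refers throughout to the promoter mark and not to RNA. The background size was derived too, and the genes in it are not named, so it may take in genes without a marked promoter. The part this has in any fold was not tested.

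Synapse terms were listed for the up-regulated genes and for neither down-regulated list. All listed terms had a hypergeometric p-value below 1e-05, the highest being 9.91e-06, so 1e-05 was taken as the authors' listing limit. The number of terms tested, 21172, was derived from the ratio of their Bonferroni corrected to uncorrected p-values. Del/+ up had 16 of the 17 synapse and neurotransmitter terms among its 250 listed terms, where the listed terms were 1.18% of all tested. Cluster 2 had 5 among 104 (0.491% of tested terms listed), cluster 3 had 6 among 125 (0.59%), and cluster 4 had 4 among 89 (0.42%). Kansl1+/- up had 2 among 302 (1.43%). Cluster 1 had 0 among 190 (0.897%), Kansl1+/- down 0 among 14 (0.0661%) and Del/+ down 0 among 2 (0.00945%). With a stricter limit of 1e-06 the count fell from 16 to 11 in Del/+ up, from 6 to 5 in cluster 3, from 5 to 2 in cluster 2 and from 2 to 1 in Kansl1+/- up, and stayed at 4 in cluster 4, and with at least 10 list genes required it was 3 in cluster 2. With the words sought in the definitions too, cluster 1 had 1 term in place of 0. The terms could enter only through this listing, so nothing is read from these percentages. As a share of the listed terms, the synapse and neurotransmitter terms were 6.40% for Del/+ up, 4.81%, 4.8% and 4.49% for clusters 2, 3 and 4, and 0.662% for Kansl1+/- up, which had more listed terms than any other list.

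**Figure D1:**
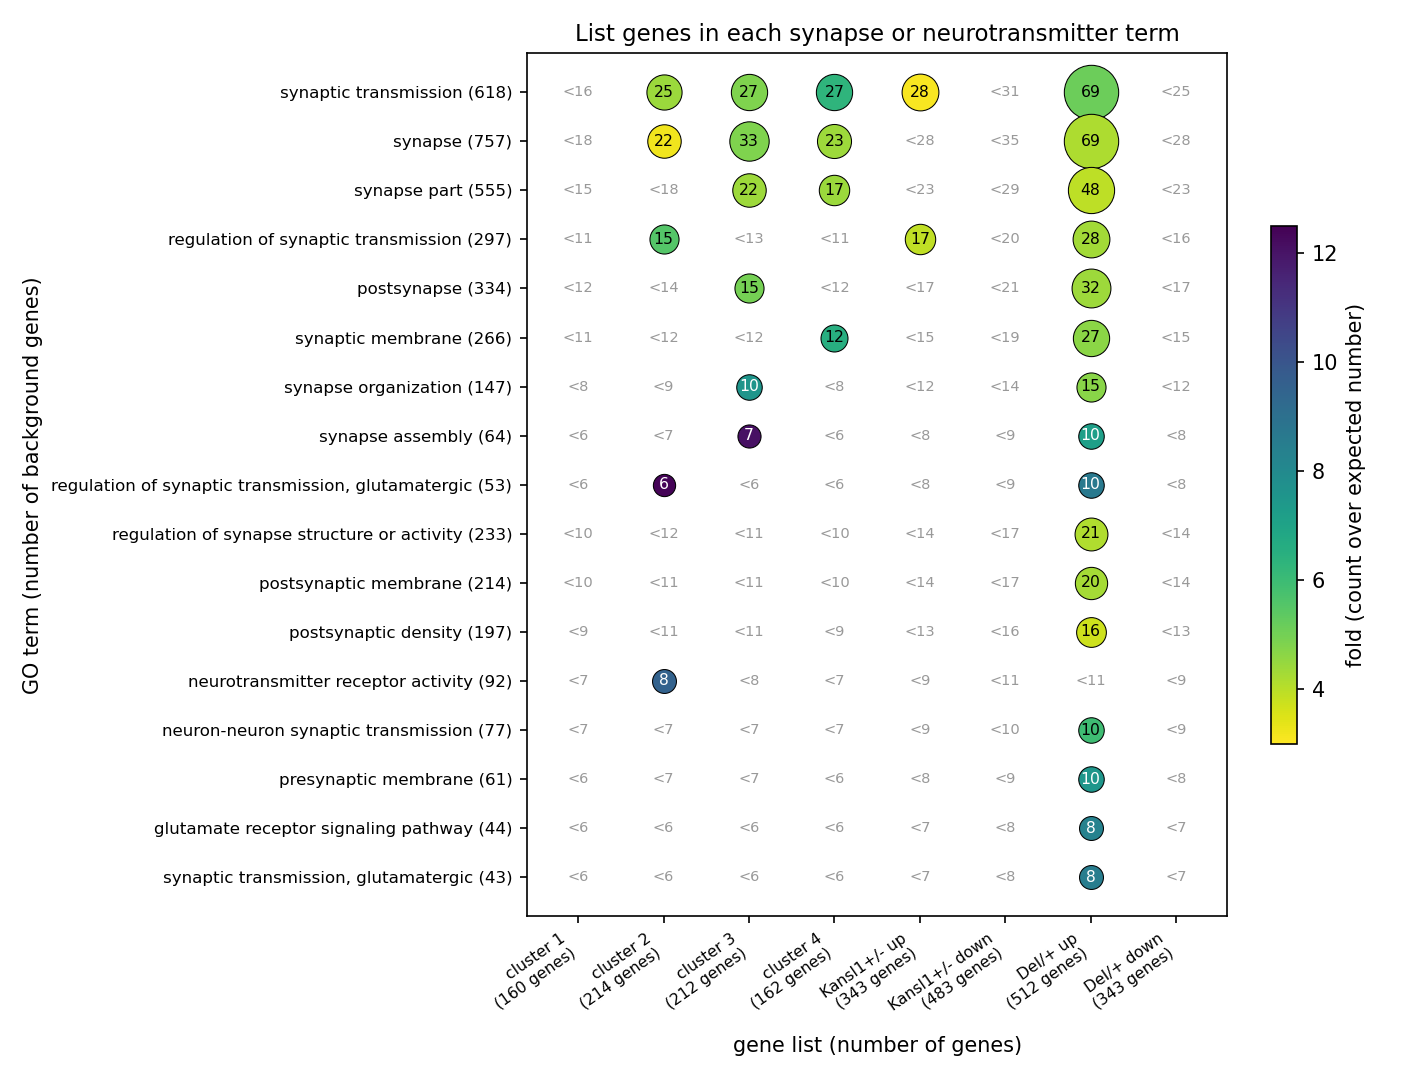
Circles give the number of list genes in each of the 17 terms (vertical axis, with background genes in brackets) in each of the 8 gene lists (horizontal axis, with list sizes), with area growing with the count and colour giving the fold; grey figures mark terms that were not listed, with the count needed to be listed. Del/+ up has a circle in 16 of the 17 terms, and cluster 1 and both down-regulated lists have 0.

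Of the 17 terms, 9 were listed for 2 or more lists and 8 for 1 list alone. Of these 8, neurotransmitter receptor activity was listed for cluster 2 alone and the other 7 for Del/+ up alone. A missing term is not a low count, because the count needed to be listed grows with both list and term. For example, postsynaptic density was listed for Del/+ up with 16 genes, a fold of 3.72, whereas cluster 2 could hold up to 10 such genes, a fold of 5.57, without the term being listed. Of the 33 entries, 16 (48.5%) stood at or within 1 gene of the count needed, as did 356 of all 1076 (33.1%).

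Synaptic transmission (GO:0007268), the passing of a signal across the synapse, was the term found in most lists. It has 618 background genes, which are 2.63% of the background. Del/+ up held 69 of them where 13.5 were expected, a fold of 5.12 (95% interval 4.04 to 6.36), and these 69 genes were 11.2% of the whole term. Cluster 4 held 27 where 4.27 were expected, a fold of 6.33 (4.28 to 8.85). Cluster 3 held 27 where 5.58 were expected, a fold of 4.84 (3.25 to 6.83). Kansl1+/- up held 28 where 9.03 were expected, a fold of 3.10 (2.09 to 4.40), and cluster 2 held 25 where 5.64 were expected, a fold of 4.44 (2.93 to 6.36).

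In every one of these 5 lists the lower end of the interval was above the background share, as the listing itself requires. As shares of the list, synaptic transmission genes were 16.7% (11.3 to 23.3) of cluster 4, 13.5% (10.6 to 16.7) of Del/+ up, 12.7% (8.56 to 18) of cluster 3, 11.7% (7.70 to 16.8) of cluster 2 and 8.16% (5.49 to 11.6) of Kansl1+/- up. All 5 intervals overlap, including those of cluster 4 and Kansl1+/- up, the ends of this order. The lists share genes and wt libraries, so no test was made between them.

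In the 3 lists where synaptic transmission was not listed, the largest count that could have gone unlisted was 15 genes in cluster 1 (9.38% of the list), 30 in Kansl1+/- down (6.21%) and 24 in Del/+ down (7.0%). These ceilings lie below the lower ends of the intervals for cluster 4, 11.3%, and Del/+ up, 10.6%. The ceiling for cluster 1 lies above the lower ends for cluster 3, 8.56%, and cluster 2, 7.70%, and those for the down-regulated lists lie below both. All 3 ceilings lie above the lower end for Kansl1+/- up, 5.49%. A share in the down-regulated lists of up to 2.36-fold (Kansl1+/-) or 2.66-fold (Del/+) over the background is therefore compatible with the tables.

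**Figure D2:**
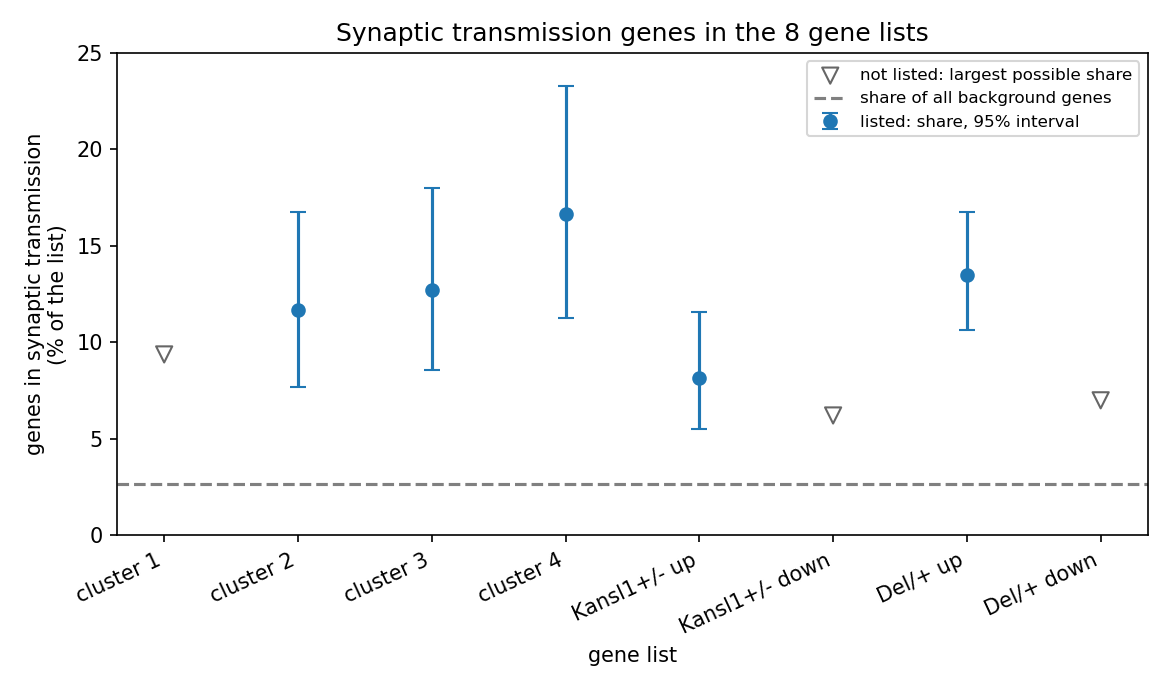
Points give the share of each gene list (vertical axis, % of the list) in synaptic transmission with the exact 95% interval, open triangles the largest share possible where the term was not listed, and the dashed line the background share of 2.63%. The points run from 8.16% for Kansl1+/- up to 16.7% for cluster 4, and the triangles from 6.21% to 9.38%.

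Synapse (GO:0045202), the term for the structure itself, has 757 background genes, 3.23% of the background. It was listed for Del/+ up and clusters 2, 3 and 4, and not for Kansl1+/- up. Del/+ up held 69 of these genes, a fold of 4.18 (3.30 to 5.19). Cluster 3 held 33, which are 15.6% of the list and a fold of 4.83 (3.40 to 6.56). Cluster 4 held 23, 14.2% and a fold of 4.40 (2.86 to 6.37). Cluster 2 held 22, 10.3% and a fold of 3.19 (2.03 to 4.70), which was 1 gene above the 21 needed. Kansl1+/- up could hold up to 27 without listing, 7.87% of the list or a fold of 2.44.

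In cluster 3 the structure had the larger count, 33 genes against 27 in synaptic transmission. Its term is also the larger, with 757 background genes against 618, and the folds there were 4.83 and 4.84. In clusters 2 and 4 transmission had the larger count, with 25 against 22 and 27 against 23. The folds for transmission and the structure were 4.44 and 3.19 in cluster 2, and 6.33 and 4.40 in cluster 4, with overlapping intervals. In Del/+ up both terms had 69 genes, with folds of 5.12 for transmission and 4.18 for the structure, also with overlapping intervals. The tables name no genes, so how many genes the terms have in common is not known.

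Synapse part (GO:0044456), the components of the synapse, has 555 background genes. It was listed for Del/+ up with 48 genes, 9.38% of the list and a fold of 3.96 (2.96 to 5.17), for cluster 3 with 22 and a fold of 4.39, and for cluster 4 with 17 and a fold of 4.44. In GO a component is also counted under the structure that holds it, so the counts were taken as nested and subtracted. The nesting of this and the later pairs of terms rests on knowledge of the ontology and was not checked gene by gene, since the tables name no genes. Among synapse genes, synapse part made up 69.6% in Del/+ up, 66.7% in cluster 3 and 73.9% in cluster 4, beside 73.3% in the background. The 21 synapse genes of Del/+ up that were not under synapse part were also over their expected number, with a fold of 4.77 (2.97 to 7.2) over 202 background genes.

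For the receiving side 3 terms were listed, and for the sending side 1. Postsynapse (GO:0098794), with 334 background genes, held 32 genes of Del/+ up, a fold of 4.39 (3.03 to 6.12), and 15 of cluster 3, a fold of 4.97, 1 above the 14 needed. These are 46.4% and 45.5% of the synapse genes of the 2 lists, beside 44.1% in the background. Synapse genes not annotated to the postsynapse numbered 37 in Del/+ up where 9.23 were expected, a fold of 4.01 (2.85 to 5.45), which overlaps the interval for the postsynapse. The share of postsynaptic genes among the synapse genes was thus close to that of the background, within counting error.

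Synaptic membrane (GO:0097060), the membrane on either side of the contact, has 266 background genes. Del/+ up held 27 of them, a fold of 4.65 (3.09 to 6.69), and cluster 4 held 12, a fold of 6.54 (3.43 to 11.1), 1 above the 11 needed. It made up 70.6% of the synapse part genes of cluster 4 (44.0 to 89.7) and 56.3% of those of Del/+ up (41.2 to 70.5), beside 47.9% in the background, which lies inside both intervals. The membrane term was the only member listed for cluster 4 beyond synaptic transmission, synapse and synapse part.

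The finer places of the synapse were listed for Del/+ up alone. Postsynaptic membrane (GO:0045211), where the receptors sit, held 20 of 214 background genes, a fold of 4.28 (2.63 to 6.55). Postsynaptic density (GO:0014069), the layer that anchors them, held 16 of 197, a fold of 3.72 (2.14 to 5.99), the lowest of the 16 terms and exactly the count needed. Presynaptic membrane (GO:0042734), where vesicles fuse and release transmitter, held 10 of 61, a fold of 7.51 (3.62 to 13.7), 1 above the 9 needed.

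Presynaptic membrane genes were 37.0% of the synaptic membrane genes of Del/+ up (19.4 to 57.6), beside 22.9% in the background, and postsynaptic membrane genes were 74.1% (53.7 to 88.9), beside 80.5%. Both background shares lie inside the intervals. The counts of 20 and 10 within 27 mean that at least 3 of these genes carry both terms. Postsynaptic density genes were 50% of the postsynapse genes of Del/+ up (31.9 to 68.1), beside 59.0% in the background.

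**Figure D3:**
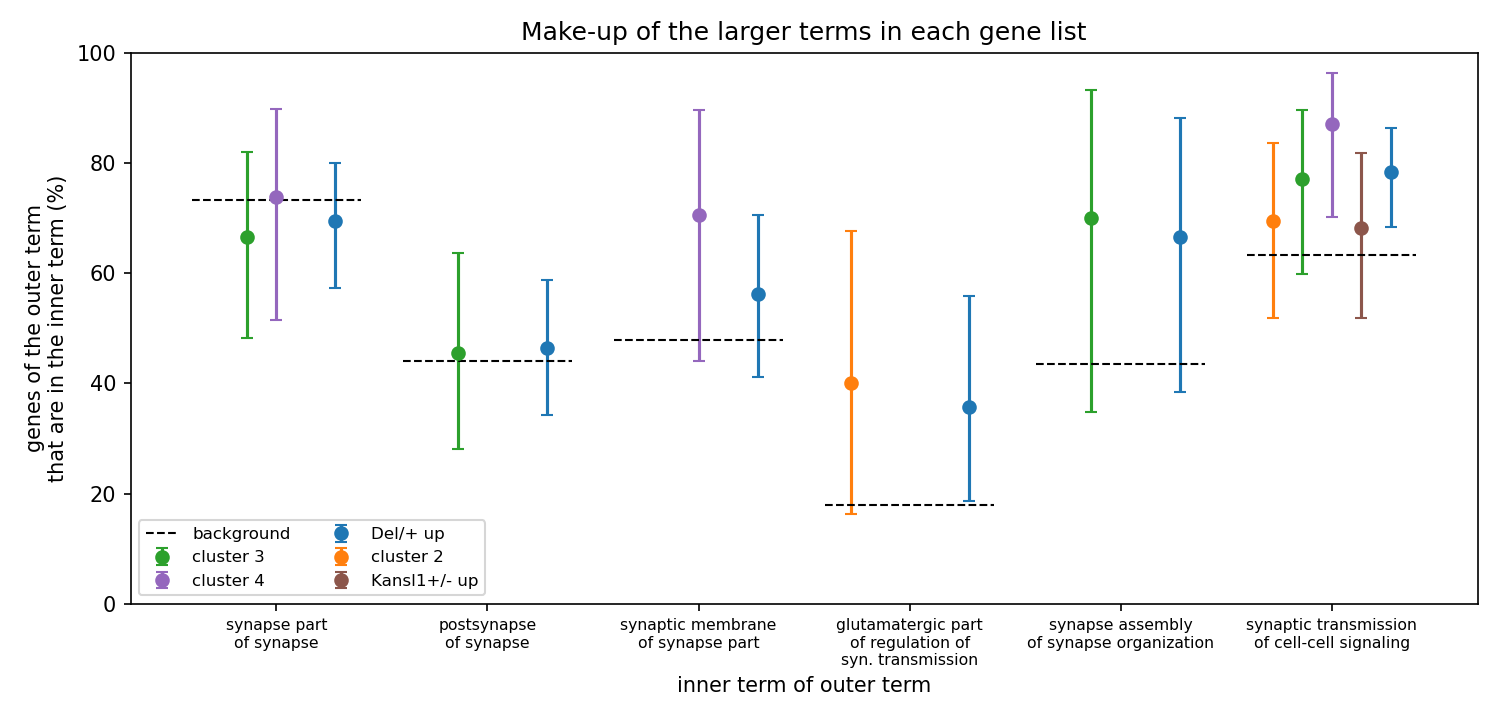
Points give the percentage of the genes of a larger term that are also in a smaller term inside it (vertical axis) for 6 such pairs (horizontal axis), by gene list, with exact 95% intervals, and dashed lines give the same percentage in the background. For postsynapse within synapse the points of 45.5% and 46.4% sit by the line at 44.1%, and for the glutamatergic part of regulation of synaptic transmission the points of 40% and 35.7% sit above the line at 17.8%.

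Terms for building synapses were listed for cluster 3 and Del/+ up. Synapse organization (GO:0050808), the making and upkeep of the contact, has 147 background genes. Cluster 3 held 10, a fold of 7.53 (3.65 to 13.6), and Del/+ up held 15, a fold of 4.68 (2.63 to 7.64), each 1 above the count needed. Synapse assembly (GO:0007416), the forming of new contacts, has 64 background genes. Cluster 3 held 7, a fold of 12.1 (4.90 to 24.5) and just the count needed, and Del/+ up held 10, a fold of 7.16 (3.45 to 13.1), with 9 needed.

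Assembly genes made up 70% of the organization genes of cluster 3 (34.8 to 93.3) and 66.7% of those of Del/+ up (38.4 to 88.2), beside 43.5% in the background, which lies inside both intervals. The remaining organization genes were few, 3 in cluster 3 and 5 in Del/+ up.

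Regulation of synaptic transmission (GO:0050804), the control of how strongly the signal passes, was listed for both mutants. Of its 297 background genes, Del/+ up held 28, a fold of 4.32 (2.90 to 6.17), cluster 2 held 15, a fold of 5.54 (3.14 to 8.93), and Kansl1+/- up held 17, a fold of 3.92 (2.30 to 6.18), 1 above the 16 needed. With synaptic transmission, it was 1 of the 2 terms listed for Kansl1+/- up. The 2 terms were also both listed for cluster 2, whose genes were up-regulated in both mutants. Regulation of synapse structure or activity (GO:0050803), which takes in the shape of the contact as well, was listed for Del/+ up alone with 21 of 233 genes, a fold of 4.13 (2.57 to 6.25).

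Clusters 3 and 4 had no listing of regulation of synaptic transmission, though up to 12 genes (a fold of 4.47) and 10 genes (a fold of 4.88) could have gone unlisted there. These ceilings are above the fold of 4.32 in Del/+ up.

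The 3 glutamate terms had the highest folds of the 16 members in Del/+ up and the widest intervals. Regulation of synaptic transmission, glutamatergic (GO:0051966) held 10 of 53 background genes in Del/+ up, 18.9% of the term and a fold of 8.65 (4.16 to 15.8), and 6 in cluster 2, a fold of 12.4 (4.59 to 26.6). Synaptic transmission, glutamatergic (GO:0035249) held 8 of 43 in Del/+ up, a fold of 8.53 (3.69 to 16.7). Glutamate receptor signaling pathway (GO:0007215), the signalling set off when glutamate binds its receptors, held 8 of 44, a fold of 8.33 (3.61 to 16.3). By fold these were the terms at places 10, 11 and 12 of the 250 listed for Del/+ up, where synaptic transmission was at place 43 and postsynaptic density at place 96. They were also the smallest of the 16 members. The folds they needed to be listed were 7.78, 8.53 and 8.33 in the same order, beside 2.37 for synaptic transmission. High folds and places were thus set largely by term size and the listing limit, and nothing about glutamate is read from them.

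All 4 of these entries were near the limit. Glutamatergic regulation stood at exactly the 6 genes needed in cluster 2 and 1 above the 9 needed in Del/+ up, and the other 2 terms stood at exactly the 8 needed. Neuron-neuron synaptic transmission (GO:0007270), transmission from a neuron to another neuron, likewise stood at its needed count in Del/+ up, with 10 of 77 genes and a fold of 5.95 (2.87 to 10.9).

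Within regulation of synaptic transmission, glutamatergic genes made up 35.7% in Del/+ up (18.6 to 55.9) and 40% in cluster 2 (16.3 to 67.7), beside 17.8% in the background. The terms were listed through these same counts, so the shares are a description. The remaining regulation genes of Del/+ up numbered 18 of 244, a fold of 3.38 (2.02 to 5.29). Within synaptic transmission, the 8 genes annotated to synaptic transmission, glutamatergic were 11.6% of the 69 in Del/+ up (5.14 to 21.6), beside 6.96% in the background. The other 61 had a fold of 4.86 (3.77 to 6.14). Genes of the other glutamate terms may be among these 61, since the tables do not name them.

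Neurotransmitter receptor activity (GO:0030594), the binding of a transmitter by a receptor that then acts in the cell, was the 1 member not listed for Del/+ up. It was listed for cluster 2 with 8 of 92 genes, the count needed, and a fold of 9.54 (4.15 to 18.4). Del/+ up could hold up to 10 of these genes, a fold of up to 4.98, without listing. Kansl1+/- up could hold up to 8, a fold of up to 5.95.

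**Figure D4:**
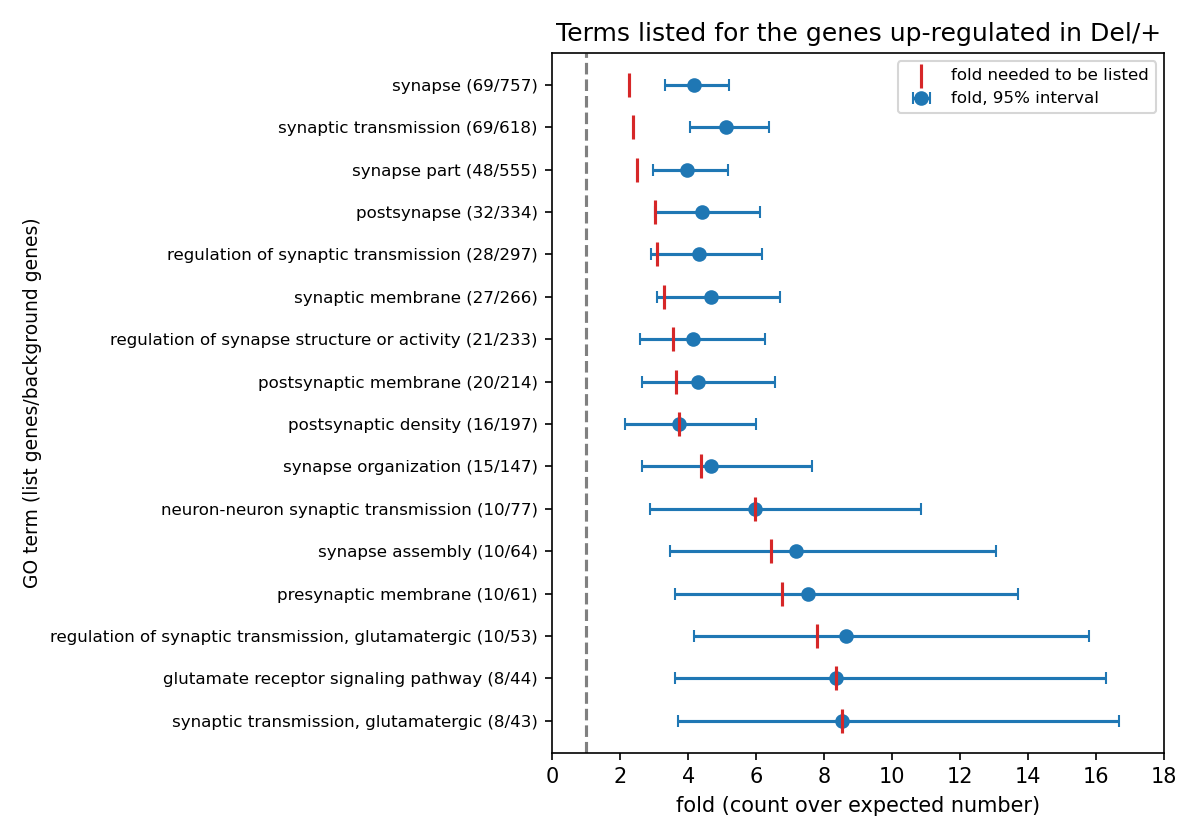
Points give the fold (horizontal axis) with its exact 95% interval for the 16 terms listed for Del/+ up (vertical axis, with list genes over background genes), red ticks the fold needed to be listed and the dashed line a fold of 1. Folds run from 3.72 for postsynaptic density to 8.65 for glutamatergic regulation, and 8 of the 16 terms are at or within 1 gene of the count needed.

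The authors' tables collect terms into numbered groups, by a rule that was not examined here, and the members fell into few of them. In Del/+ up, 7 of the 27 groups held a member. One group of 6 terms held synapse, synapse part, postsynapse, synaptic membrane and postsynaptic membrane with a single further term, cell junction. A group of 3 terms was made up of members alone: synaptic transmission, glutamatergic, glutamate receptor signaling pathway and neuron-neuron synaptic transmission. The 2 general regulation terms stood with behavior (49 of 584 genes, a fold of 3.85), learning and cognition.

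Glutamatergic regulation stood in another group, whose term with the most genes was G-protein coupled receptor signaling through cyclic nucleotides, with 20 of 204 genes and a fold of 4.49. Postsynaptic density stood with calmodulin binding, the binding of a calcium sensor protein, with 17 of 174 genes and a fold of 4.48. Presynaptic membrane stood with synapse organization, synapse assembly, social behavior, hindbrain morphogenesis and hindbrain development.

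In the other lists, 4 of 18 groups held a member for cluster 2, 3 of 26 for cluster 3, 2 of 13 for cluster 4 and 2 of 35 for Kansl1+/- up. Cluster 3 had a group of organization and assembly alone. In cluster 2, neurotransmitter receptor activity stood with neuropeptide signaling pathway (9 of 107 genes, a fold of 9.22). In Kansl1+/- up, synaptic transmission stood in a group led by neuron part, with 42 of 1383 genes and a fold of 2.08.

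Synaptic transmission lies within cell-cell signaling in GO, and this wider term was listed for the same 5 lists. Synaptic transmission genes were 87.1% of the cell-cell signaling genes of cluster 4 (27 of 31, interval 70.2 to 96.4) and 78.4% of those of Del/+ up (69 of 88, interval 68.4 to 86.5), beside 63.3% in the background. They were 77.1% in cluster 3 (59.9 to 89.6), 69.4% in cluster 2 (51.9 to 83.7) and 68.3% in Kansl1+/- up (51.9 to 81.9). The pair of terms was chosen after its values were seen, and synaptic transmission was listed through these same counts, so the shares are a description.

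The folds of the members were set beside those of all listed terms. In Del/+ up the median fold of the 16 members was 4.66 (range 3.72 to 8.65), beside 3.16 over the 250 listed terms. The members were smaller terms, with a median of 205.5 background genes beside 643, and a smaller term needs a higher fold to be listed. Among terms with 100 to 800 background genes, the median was 4.30 over 10 members and 3.90 over 119 listed terms.

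In the other lists the members' median fold was 5.54 beside 3.53 over all listed terms for cluster 2, 4.90 beside 3.42 for cluster 3, 5.38 beside 4.45 for cluster 4 and 3.51 beside 3.05 for Kansl1+/- up. Between 100 and 800 background genes it was 4.44 beside 5.76, 4.84 beside 4.32, 5.38 beside 6.14 and 3.51 beside 4.04. Within this band the members' median was thus the lower of the pair in clusters 2 and 4 and Kansl1+/- up, and the higher in cluster 3 and Del/+ up. The band is wide, so sizes within it may still differ between the members and the other terms. Terms share genes and are not replicates, so no test was made.

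**Figure D5:**
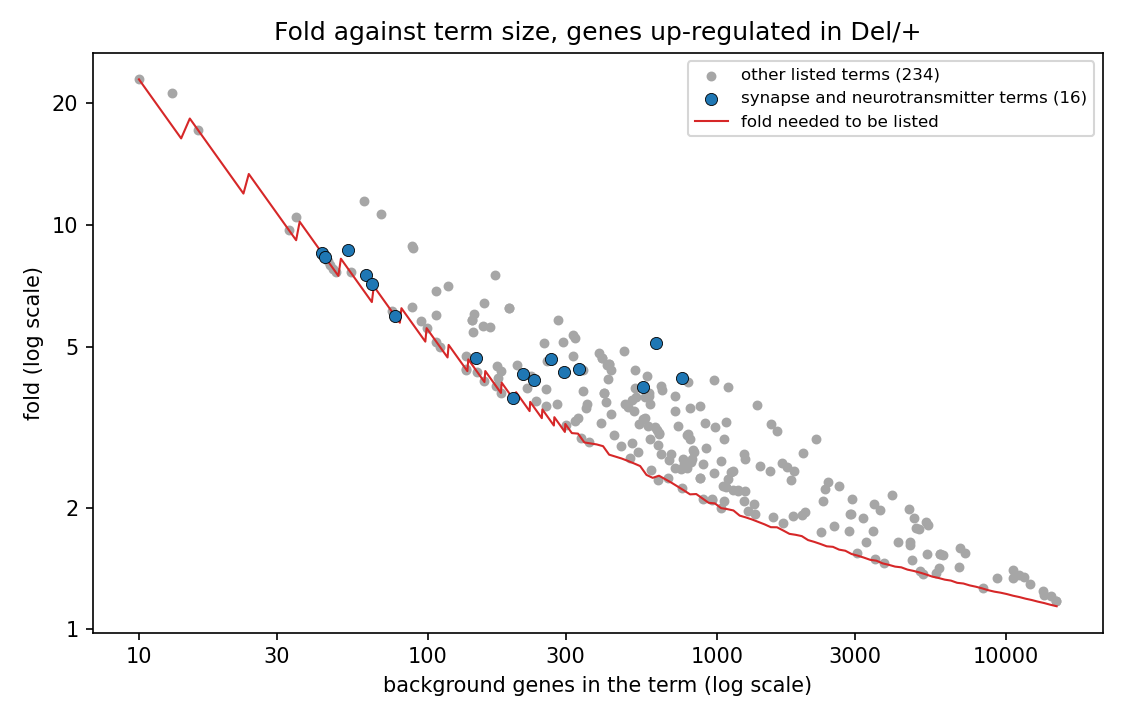
Each point is a term listed for Del/+ up, with its background genes (horizontal axis, log scale) and its fold (vertical axis, log scale); blue points are the 16 members, grey points the other listed terms and the red line the fold needed to be listed. The members lie in the range of the grey points of like size, and those under 100 background genes lie on or next to the line.

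Compared with other neuronal terms, grouped by words in their names, the members of Del/+ up had a median fold close to that of ion channel and behavior terms. Their median of 4.66 compares with 4.53 over 37 ion channel terms, 4.38 over 11 behavior terms and 3.80 over 22 axon and dendrite terms. The 11 behavior terms take in neuron recognition, whose name holds the letters of cognition, so their median and size are not of behavior alone. The median sizes of these 4 sets were 205.5, 352, 221 and 563.5 background genes in the same order, so the sets needed different folds to be listed. In cluster 2 the median was 5.54 over 5 members (median size 297), 3.24 over 8 axon and dendrite terms (925.5), and 3.58 and 6.02 for the 1 ion channel and 1 behavior term. In cluster 4 the median was 5.38 over the 4 members, 6.53 over 32 ion channel terms and 4.05 over 12 axon and dendrite terms, with median sizes of 586.5, 371 and 755.5, and 4.77 over 2 behavior terms (506.5). Cluster 3 had 6 members at 4.90, 22 axon and dendrite terms at 4.27 and 5 ion channel terms at 4.42, with median sizes of 444.5, 563.5 and 356, and 2 behavior terms at 3.99 (506.5).

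Cluster 1, the genes up-regulated in Kansl1+/- and not in Del/+, had 8 axon and dendrite terms listed with a median fold of 5.03, and 0 synapse and neurotransmitter, 0 ion channel and 0 behavior terms. It could hold up to 17 synapse genes, a fold of 3.29, without listing. In Kansl1+/- up 12 axon and dendrite terms were listed with a median of 3.72, beside 3.51 over the 2 members, with median sizes of 615 and 457.5. It also had 2 ion channel terms at 3.22 (median size 522) and 1 behavior term at 5.49 (237).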

How the data were processed

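H3K4me3 ChIP-seq was made from 12 hippocampi. The authors mapped reads with BWA 0.6.2 to mm9 (per the submitters' processing notes), called peaks with their own C++ program, compared promoters with DESeq2 (3 mutant against 6 wt) and tested GO terms with a hypergeometric test. The deposited tables give, per listed term, the count of list and background genes, the authors' expected number (handled here as a score), the fold ratio and p-values. All these values are the authors' deposited values, and the tables hold 0 unused columns per sample.

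List sizes and the background were chosen to fit the deposited counts, expected numbers and p-values together, returning all 1076 printed expected numbers within rounding and 1002 p-values within 2%. The other 74 were at or below 2.09e-15. The smallest count that brings the hypergeometric p below 1e-05 is the count needed to be listed. The work used scipy 1.17.1 and numpy 2.4.6 under Python 3.11.15, with plots in matplotlib 3.10.9. No set test was run. Every member term is named in each list where it was listed, and other terms by word or as the largest term of a member's group. Some further terms of these groups, such as cell junction and the hindbrain terms, are named without a fixed rule. Members and term lists were chosen with earlier results of these data known. Alternatives were other word rules, a stricter limit, minimum counts and sizes, and counts or list sizes changed by 1 gene.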

Additional observations from a re-analysis of the deposited data

How the results depend on the processing

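Of 88 alternative values over 28 results, 84 stayed within limits, which were a ratio of 1.5 for a count and the 95% counting interval for a fold. Many of these values could not leave their limits by construction, so the tally says little about stability. A count of 0 stays 0 under a narrower word rule, a stricter limit or a minimum count. Taking 1 gene off a count, or recomputing the expected number, keeps a fold inside its own counting interval. The 2 folds outside a nested term could not move, since 1 gene was taken from both counts. Within these limits the members of Del/+ up ranged from 11 (limit of 1e-06) to 19 (words in definitions) around 16, those of cluster 3 from 5 to 9 around 6, and those of cluster 2 rose from 5 to 7 with definitions or neuropeptide terms. The 4 that moved further were numbers of listed member terms. Cluster 1 went from 0 to 1 when the words were sought in the definitions too. Cluster 2 went from 5 to 2 under a listing limit of 1e-06 and to 3 with at least 10 list genes required, and Kansl1+/- up from 2 to 1 under 1e-06. Adding the word neuropeptide was chosen after seeing the data. No paired analysis was possible because the tables hold no values per mouse, and for the same reason no mouse could be left out. Of the 33 entries, 16 stand at or within 1 gene of listing.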

Other observations

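Several transmitter terms lie outside the word rule, and these were chosen after their values were seen. In cluster 2, serotonin receptor activity and serotonin receptor signaling pathway each held 4 of 14 background genes, a fold of 31.3 (95% interval 8.58 to 79.1) and exactly the count needed to be listed. Neuropeptide receptor activity held 6 of 47 in cluster 2, a fold of 14 (5.17 to 30), also the count needed. Neuropeptide signaling pathway, the signalling of small peptide transmitters, held 9 of 107 in cluster 2, a fold of 9.22 (4.26 to 17.2), and 14 in Del/+ up, a fold of 6.00 (3.30 to 9.97).

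In cluster 3, gamma-aminobutyric acid signaling pathway, the signalling of the main inhibitory transmitter, held 5 of 26 genes, a fold of 21.3 (6.95 to 48.9), at the count needed. Del/+ up could hold up to 6 of these genes without the term being listed. Transmission of nerve impulse held 7 of 60 genes in cluster 3, a fold of 12.9 (5.23 to 26.1), and 15 in Del/+ up, a fold of 11.5 (6.45 to 18.7), which is 25% of the term.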
